A study of Homo sapiens with 6 samples.

Results

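This account follows 40 genes of ribosome biogenesis in U251 cells, an established human glioblastoma line. The genes were chosen by symbol for their role in making ribosomes, with earlier results of these data known. Counts over the list are therefore descriptions and no test of it. Symbols were matched to the Ensembl identifiers of the expression tables, which gave 39 genes of the 20330 listed. BOP1 was not matched and is not analysed here. U251 control cells were compared with U251 cells made to overexpress a long noncoding RNA, XLOC013218, stably, with 3 libraries in each group and no other treatment named. What the control cells carry and whether the overexpressing cells are 1 clone or a pool are not given in the sources used here. Poly(A)-selected RNA is named in the labels' protocols, whereas the series' design text describes cytoplasmic RNA without that selection.

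Ribosomes are assembled in the nucleolus. RNA polymerase I copies the ribosomal DNA into a long precursor, small nucleolar ribonucleoproteins (snoRNPs) guide its methylation and pseudouridylation, and large sets of assembly factors cut, fold and clothe it with ribosomal proteins until the small and large subunits leave for the cytoplasm. Many of these factors are transcribed under the control of MYC, and ribosome production is raised in many fast-growing tumours.

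Levels are given as FPKM, fragments per kilobase of transcript and scaled to the mapped fragments of the library. They can be compared between genes, but only roughly between libraries. The sum over all Ensembl genes ran from 598682.9 FPKM in control replicate 3 to 621921.6 FPKM in overexpression replicate 2. FPKM hold no read totals, and depth in reads is unknown. The relative depth estimated from the steps between low values ran from 0.77 to 1.0 in control and from 0.78 to 0.9 in overexpressing cells. Of the 8 glioma and astrocyte markers, 6 averaged at least 1 FPKM, and OLIG2 and S100B stayed at or under 0.89 FPKM in every library. The summed level of these 8 markers ran from 5069 to 5451 FPKM in control and from 4788 to 5010 FPKM in overexpressing cells, and GFAP was at 41.6 and 21.6 FPKM on average (limma adjusted p = 0.107). The part of this difference in the results below was not tested. Of the leukocyte markers, CD3E was listed at 0 in all 6 libraries, PTPRC at no more than 0.65 FPKM and CD14 at 0.65 to 1.54 FPKM, and epithelial markers summed to at most 1.0 FPKM. Of the neuron markers, SYT1 was at 6.93 to 9.35 FPKM, SNAP25 at 1.68 to 2.28 FPKM and RBFOX3 at no more than 0.08 FPKM.

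All 39 genes had a higher mean in overexpressing cells, and none of them passed the test. The differences were small. The median log2 fold change on the log2(FPKM + 1) scale was 0.13, a 1.097-fold higher level, against -0.0008 for the 11731 tested genes. Single genes lay between 0.02 for NOP10, a subunit of the H/ACA snoRNP, and 0.33 for WDR43, a factor of the small subunit. By limma, with p-values adjusted after Benjamini and Hochberg across the whole table and a threshold of 0.05, 0 of the 39 genes were called, where 61 of all tested genes, 0.52%, were called. That 61 was 63 without overexpression replicate 2 and between 1 and 23 without any other library, while the 0 did not change. The lowest adjusted p among the 39 was 0.0954, for DDX10, an RNA helicase of the small subunit pathway. A higher mean was seen in 39 of 39 genes, against 49.7% of all tested genes, and this count was 39 after rescaling to TPM and under quantile normalization too. It was between 36 and 39 when 1 library was left out and 36 with array quality weights.

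The separation of the groups was counted as well. In 19 of the 39 genes, 48.7%, the 3 overexpression values all lay above the 3 control values, as in 8.81% of all tested genes. In 0 of the 39 they all lay below, as in 10.1% of tested genes. At an unadjusted p under 0.05 in limma, 15 of the 39 genes were higher and 0 lower, where 5.81% of tested genes were higher and 6.90% lower. This count of 15 went to 7 without control replicate 2 and lay between 11 and 14 without any other library. The 95% interval of the log2 fold change ended below 0.5 in 38 of the 39 genes, all but WDR43, and in 11027 of the 11731 tested genes. The 3 libraries of a group are called independent biological replicates in the design text, with no word on whether they were separate cultures, so the p-values measure the spread between these libraries.

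**Figure D1:**
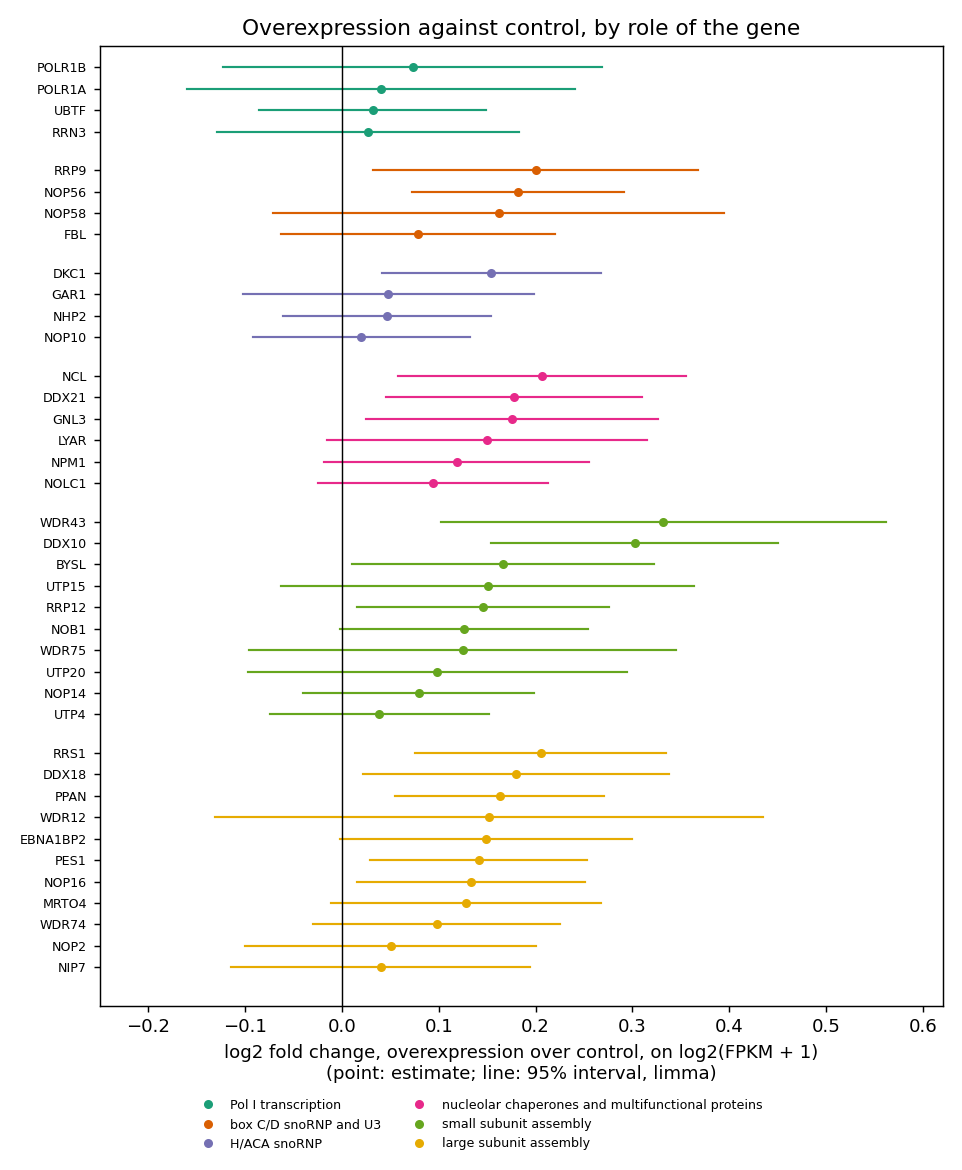
Log2 fold change of each of the 39 genes, overexpression over control, on log2(FPKM + 1) (x axis), by role (colour); points are limma estimates and lines 95% intervals, from 3 libraries per group. Every point lies right of 0, between 0.02 and 0.33, and the 4 genes of RNA polymerase I transcription lie between 0.03 and 0.07.

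The shift was present in each overexpression library. Relative to the control mean of each gene, the median of the 39 genes stood at 0.10, 0.15 and 0.11 on the log2 scale in overexpression replicates 1, 2 and 3. For control replicates 1 to 3, whose deviations average 0 in each gene by construction, it ran from -0.005 to 0.007. The same median over all tested genes lay between -0.0024 and 0.0024 in all 6 libraries. Of 117 overexpression values, 108 lay above the control mean of their gene, and in 32 of the 39 genes all 3 did. By library, these were 35, 38 and 35 of the 39 genes in overexpression replicates 1, 2 and 3. Of the 11731 tested genes, 5827, 5784 and 5852 lay above it. The share of tested genes with all 3 above was not counted, and the 117 values come from only 3 libraries. The share of the FPKM of all Ensembl genes that the 39 genes took was 0.686%, 0.662% and 0.680% in the control libraries, in order of replicate, and 0.699%, 0.751% and 0.729% in the overexpression libraries. The group ranges of this share did not overlap. NPM1 alone made up a large part of it. The summed level was 4062.0 to 4253.2 FPKM in control and 4296.5 to 4670.8 FPKM in overexpressing cells. Without NPM1 it was 2413.1 to 2454.0 and 2565.5 to 2732.5 FPKM.

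**Figure D2:**
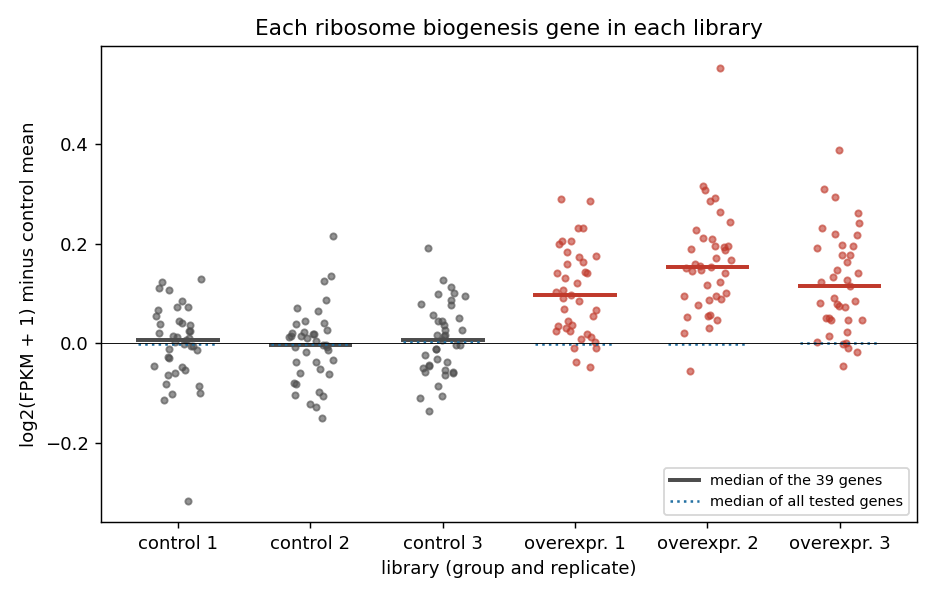
Difference of log2(FPKM + 1) from the control mean (y axis) for each of the 39 genes (points) in each of the 6 libraries (x axis); solid bars are the medians of the 39 genes and dotted bars those of all 11731 tested genes. The solid bars of the overexpression libraries stand at 0.10, 0.15 and 0.11, while the dotted bars stay within 0.0024 of 0.

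These genes were expressed well above the middle of the transcriptome. Their mean over the 6 libraries ran from 10.1 FPKM for UTP20 to 1770 FPKM for NPM1, with a median of 39.1 FPKM against 16.9 FPKM for all tested genes, and 36 of the 39 lay above that last value. NPM1 stood alone at the top. NCL at 328, FBL at 280, NOP10 at 267 and NHP2 at 258 FPKM followed, with overlapping values among neighbours, and EBNA1BP2 came next at 104 FPKM. At the low end UTP20 was followed by POLR1A at 14.6 and UTP15 at 15.7 FPKM. The median log2 fold change was 0.15 in the 19 genes below the median level, 0.13 in the 19 above it and 0.10 in the 6 at 100 FPKM or more, and these differences were not tested. The median coefficient of variation over the control libraries was 5.26%, against 6.59% for all tested genes. WDR12 varied most, at 19.1%, and EBNA1BP2 least, at 0.833%.

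**Figure D3:**
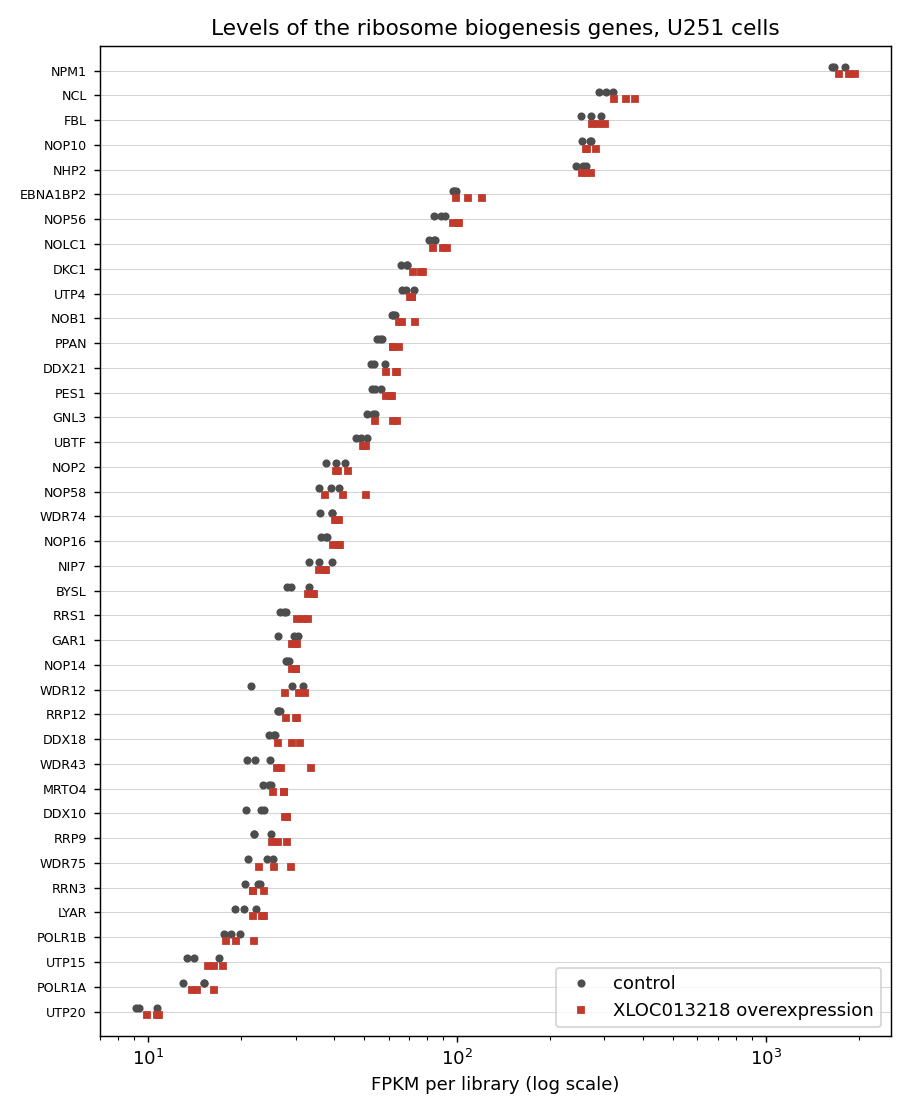
FPKM of each of the 39 genes (rows, ordered by mean level) in the 3 control (grey circles) and 3 overexpression (red squares) libraries, on a log axis. NPM1, at 1770 FPKM on average, stands apart from the rest, and control replicate 1 of WDR12 lies left of its other values.

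The genes of RNA polymerase I transcription include the largest polymerase subunits POLR1A and POLR1B, the promoter factor UBTF and RRN3, which brings the polymerase to the promoter. Their median log2 fold change was 0.04, beside 0.05 for the H/ACA snoRNP genes described below. In 0 of the 4 did the groups separate, where 8.81% of all tested genes were apart and higher and 10.1% apart and lower. Of 12 further genes of this role in the wider list below, 4 were apart and higher and 1 apart and lower, with a median of 0.10. UBTF was the most abundant, at 48.8, 51.2 and 46.9 FPKM in control replicates 1 to 3 and 49.6, 49.96 and 50.6 FPKM in overexpression replicates 1 to 3. POLR1B was at 17.6, 19.9 and 18.6 FPKM in control and at 22.1, 17.9 and 19.3 FPKM in overexpressing cells. POLR1A was at 15.1, 15.2 and 13.0 FPKM in control and at 14.4, 16.3 and 13.9 FPKM in overexpressing cells. In each of these 3 genes the overexpression values lay among the control values, apart from POLR1B in overexpression replicate 1 and POLR1A in overexpression replicate 2, which were the highest of their 6. The limma adjusted p ran from 0.785 to 0.910 in the 4 genes, and the 95% interval of the log2 fold change of UBTF was -0.08 to 0.15.

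Among the box C/D snoRNP genes, which serve 2'-O-methylation and early cleavage of ribosomal RNA, the median log2 fold change was 0.17. NOP56, a core scaffold, was at 84.3, 88.6 and 91.1 FPKM in control and at 97.0, 101.8 and 100.8 FPKM in overexpressing cells. All of its overexpression values lay above all control values, and the log2 fold change was 0.18 (SE 0.05; limma adjusted p = 0.159). RRP9, a protein of the U3 snoRNP, was at 25.04, 21.9 and 21.9 FPKM in control and at 28.2, 25.1 and 26.3 FPKM in overexpressing cells. Its groups were also separate, though control replicate 1 and overexpression replicate 2 nearly met, and its log2 fold change was 0.20 (SE 0.07, limma adjusted p = 0.303). NOP58, the partner of NOP56, was at 38.97, 35.8 and 41.4 FPKM in control and at 37.4, 42.8 and 50.9 FPKM in overexpressing cells. Its groups overlapped, with overexpression replicate 3 highest. FBL, the methyltransferase fibrillarin, was at 293, 271 and 252 FPKM in control and at 274, 302 and 286 FPKM in overexpressing cells, again with overlap (log2 fold change 0.08, and 0.03 to 0.13 with 1 library left out; limma adjusted p = 0.656).

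The H/ACA snoRNP, which isomerises uridines to pseudouridine, has 4 core proteins. The groups separated in 1 of the 4, DKC1, where 8.81% of all tested genes were apart and higher. DKC1, the catalytic subunit dyskerin, was at 68.9, 68.7 and 65.7 FPKM in control and at 72.2, 77.7 and 76.7 FPKM in overexpressing cells, without overlap (log2 fold change 0.15, SE 0.05, limma adjusted p = 0.250). NOP10 was at 272, 269.9 and 253 FPKM in control and at 263, 282 and 262 FPKM in overexpressing cells. NHP2 was at 256, 262 and 244 FPKM in control and at 262, 271 and 254 FPKM in overexpressing cells. These last 2 genes overlapped between the groups, with log2 fold changes of 0.02 and 0.05. GAR1 was at 29.7, 26.4 and 30.5 FPKM in control and at 30.3, 29.9 and 29.3 FPKM in overexpressing cells, also with overlap. The 95% interval of the log2 fold change was 0.04 to 0.27 for DKC1, and those of its partners overlapped it. The ratio of NHP2 to DKC1 levels was 3.71 to 3.81 in control and 3.31 to 3.62 in overexpressing cells, and that of NOP10 to DKC1 was 3.86 to 3.95 and 3.41 to 3.65. Neither ratio overlapped between the groups, while the ratio of GAR1 to DKC1 did, at 0.384 to 0.464 and 0.382 to 0.419. Ratios were also taken of NOP56 to NOP58, FBL to NOP56, PES1 to WDR12 and POLR1B to POLR1A. Each of these overlapped between the groups. The ratios were chosen after the values were seen and were not tested, and 3 libraries against 3 cannot give an exact permutation p under 0.1.

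For the abundant nucleolar proteins with several roles the median log2 fold change was 0.16. The groups were separate in 3 of the 6, all higher, against 8.81% of all tested genes. NCL, nucleolin, which binds nascent ribosomal RNA, was at 304, 288 and 320 FPKM in control and at 322, 378 and 354 FPKM in overexpressing cells. The lowest overexpression value was just above the highest control value, and the log2 fold change was 0.21 (SE 0.07, limma adjusted p = 0.246). DDX21, an RNA helicase that acts with RNA polymerases I and II, was at 53.8, 52.6 and 58.3 FPKM in control and at 59.0, 63.6 and 63.9 FPKM in overexpressing cells. GNL3, the GTPase nucleostemin, was at 50.96, 53.6 and 54.3 FPKM in control and at 54.4, 62.2 and 63.7 FPKM in overexpressing cells. In both genes the groups were separate by a narrow margin, in GNL3 by that of overexpression replicate 1 over control replicate 3, with log2 fold changes of 0.18 (limma adjusted p = 0.256 and 0.313). NPM1, nucleophosmin, a chaperone of ribosomal proteins and histones, was at 1799, 1634 and 1657 FPKM in control and at 1731, 1938 and 1859 FPKM in overexpressing cells. Control replicate 1 lay above overexpression replicate 1, and the log2 fold change was 0.12 (limma adjusted p = 0.466). GENCODE 29 names 45 pseudogenes after NPM1, so its value depends on how shared reads were assigned. LYAR and NOLC1, a growth-linked nucleolar protein and a snoRNP chaperone, had log2 fold changes of 0.15 and 0.09 and overlapped.

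The 10 genes of small subunit assembly included the 2 largest differences, those of WDR43 and DDX10, with a median log2 fold change of 0.14. The groups were separate in 5 of the 10, all higher, against 8.81% of all tested genes. DDX10 was at 23.7, 23.1 and 20.7 FPKM in control and at 27.7, 28.0 and 28.1 FPKM in overexpressing cells. The overexpression libraries were nearly equal and all above control, at 22.5 ± 1.56 and 27.9 ± 0.211 FPKM (SD, n = 3 per group), and the log2 fold change was 0.30 (SE 0.07; limma adjusted p = 0.0954). WDR43, which helps RNA polymerase I transcription and the cleavage of its product, was at 24.8, 20.9 and 22.2 FPKM in control and at 26.0, 33.6 and 26.9 FPKM in overexpressing cells. Overexpression replicate 2 was well above the rest, and the log2 fold change was 0.33 (SE 0.10, limma adjusted p = 0.222). It was 0.22 without that replicate. RRP12, an export and processing factor, was at 26.4, 26.3 and 26.7 FPKM in control and at 30.0, 30.3 and 27.9 FPKM in overexpressing cells, without overlap (log2 fold change 0.15, limma adjusted p = 0.337). UTP4, a subunit of the small subunit processome and the most abundant of the 10, was at 72.6, 68.1 and 66.4 FPKM in control and at 70.2, 71.2 and 71.3 FPKM in overexpressing cells. Its overexpression values lay within the control range. The groups of NOB1, the endonuclease of the last cut, and NOP14 were separate, and those of BYSL, UTP15, UTP20 and WDR75 overlapped, with log2 fold changes between 0.08 and 0.17 in these 6 genes.

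In large subunit assembly 8 of the 11 matched genes separated the groups, all with higher overexpression values, against 8.81% of all tested genes. The median log2 fold change was 0.14. RRS1, which helps to load the 5S ribonucleoprotein, was at 27.5, 26.7 and 27.8 FPKM in control and at 31.7, 32.98 and 30.3 FPKM in overexpressing cells. The groups were well apart, and the log2 fold change was 0.21 (SE 0.06; limma adjusted p = 0.172). PPAN, a homologue of the yeast assembly factor Ssf1, was at 54.9, 57.0 and 56.4 FPKM in control and at 64.9, 61.98 and 61.9 FPKM in overexpressing cells (log2 fold change 0.16, limma adjusted p = 0.193). PPAN overlaps the readthrough gene PPAN-P2RY11, listed at 1.3 to 2.88 FPKM, so the split of reads between them is uncertain. PES1, which forms the PeBoW complex with BOP1 and WDR12, was at 56.8, 54.4 and 52.96 FPKM in control and at 59.0, 61.0 and 61.4 FPKM in overexpressing cells. It too was higher in all 3 overexpression libraries than in any control library (log2 fold change 0.14, limma adjusted p = 0.283). Its partner WDR12 was at 21.6, 31.7 and 29.1 FPKM in control and at 27.8, 32.3 and 30.8 FPKM in overexpressing cells, with control replicate 1 far below the other 5 libraries. Without that replicate its log2 fold change went from 0.15 to -0.007. EBNA1BP2, an early large subunit factor and the most abundant of the 11, was at 97.98, 98.9 and 97.3 FPKM in control and at 108, 120 and 99.1 FPKM in overexpressing cells. The highest control and the lowest overexpression value of EBNA1BP2 nearly met. DDX18, NOP16, MRTO4 and WDR74 were also separate between the groups, with log2 fold changes between 0.10 and 0.18, while the methyltransferase NOP2 and the late factor NIP7 overlapped, at 0.05 and 0.04.

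A second list, of the wider pathway, held 135 other genes of ribosome biogenesis, of which 131 were matched and tested. None passed the threshold (0 of 131 by limma, lowest adjusted p = 0.162), 114 had a higher and 17 a lower mean, and the median log2 fold change was 0.07. At an unadjusted p under 0.05 in limma, 22, 16.8%, were higher and 0 lower. The groups were apart and higher in 34 of the 131, 26.0%, and apart and lower in 3. The shares over all tested genes were 8.81% and 10.1%. Of all tested genes 0.52% passed the threshold and 49.7% had a higher mean. At an unadjusted p under 0.05, 5.81% of them were higher and 6.9% lower. By role, the median was 0.10 for 12 further genes of RNA polymerase I transcription, 0.10 for 46 genes of the small subunit, 0.07 for 48 genes of the large subunit, 0.09 for 15 genes of the exosome and other nucleases and 0.02 for 10 snoRNP assembly factors. DDX49, a helicase, had the lowest p of those with a higher mean, at 56.1 ± 4.08 and 65.4 ± 0.741 FPKM (SD, n = 3 per group). CEBPZ, a large subunit factor, was at 19.9 ± 0.607 and 23.2 ± 0.352 FPKM, and UTP6, of the small subunit processome, at 45.7 ± 1.85 and 51.6 ± 0.921 FPKM. Among those with a lower mean, the methyltransferase BUD23 was at 124 ± 0.411 and 116 ± 5.30 FPKM, the exosome subunit EXOSC7 at 23.6 ± 0.861 and 21.5 ± 1.36 FPKM and the snoRNP assembly factor PIH1D1 at 66.8 ± 6.74 and 61.8 ± 2.84 FPKM. The overexpression values of BUD23 and EXOSC7 lay below all control values, and those of PIH1D1 overlapped. MYC, the transcription factor named above, was at 32.6, 32.7 and 30.3 FPKM in control and at 45.2, 37.0 and 38.0 FPKM in overexpressing cells. Its groups were separate and it did not pass (log2 fold change 0.32, SE 0.08, limma adjusted p = 0.140).

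**Figure D4:**
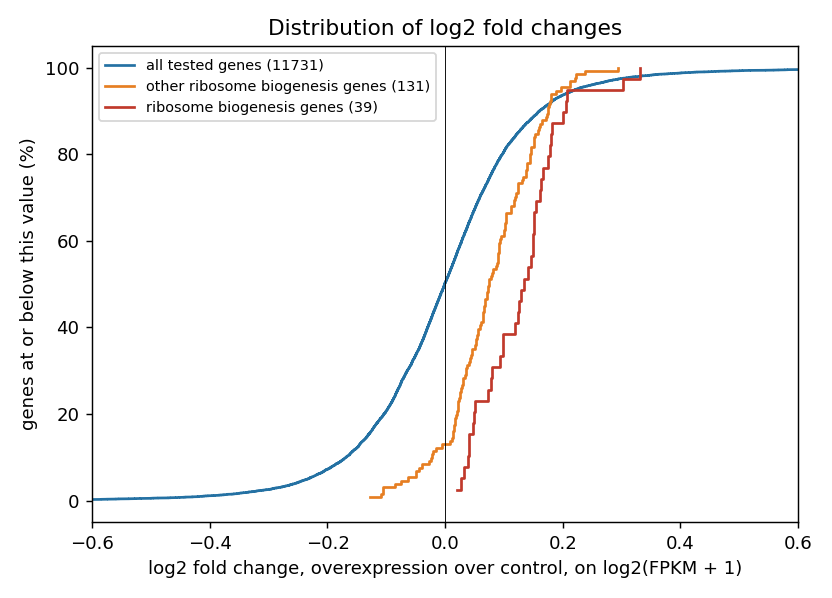
Cumulative share of genes (y axis, percent) by log2 fold change on log2(FPKM + 1) (x axis) for the 39 genes, the 131 other ribosome biogenesis genes and all 11731 tested genes; 83 tested genes lie outside the axis, which ends at -0.6 and 0.6. The 3 curves cross the middle at 0.13, 0.07 and -0.0008.

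The promoters of many of these genes share a motif. The E-box CACGTG, a sequence that MYC and MAX bind, reads the same on both strands. It was searched in RefSeq promoter windows of 300 bases (GRCh38.p14), from 250 before to 50 after each listed start. Windows were found for 34 of the 39 genes, and 16 of them, 47.1%, held the motif in at least 1 window. It was held by 27.4% of 113 genes of the wider list, by 12.7% of 9446 tested genes with a window and by 7.26% of all 35116 windows. In 15 of the 16 genes a site began within 50 bases of a start. The stretches below, each 60 bases, written 5′ to 3′ on the strand of the gene, are shown because their motif (in capitals) lies before every start listed for the gene, which held in 4 genes. In DDX21 and LYAR a motif lies before 1 listed start and after another, and a further motif of NOP10, beginning 170 bases before the start, is not printed.
UTP4, chr16:69132589-69132648, + strand: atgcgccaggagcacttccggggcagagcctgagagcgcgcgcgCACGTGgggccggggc
UTP20, chr12:101280045-101280104, + strand: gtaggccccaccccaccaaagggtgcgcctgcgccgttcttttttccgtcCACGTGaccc
NOP10, chr15:34343137-34343196, - strand: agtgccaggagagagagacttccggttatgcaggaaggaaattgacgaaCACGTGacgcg
EBNA1BP2, chr1:43172761-43172820, - strand: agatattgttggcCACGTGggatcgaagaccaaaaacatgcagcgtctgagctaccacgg
The motif begins 16, 10, 11 and 237 bases before the start in UTP4, UTP20, NOP10 and EBNA1BP2. The log2 fold changes of these 4 genes were 0.04, 0.10, 0.02 and 0.15, and those of DDX21 and LYAR 0.18 and 0.15. The median log2 fold change was 0.13 both in the 16 genes with the motif and in the 18 without it. A match describes the letters only and does not tell which factor binds there, and binding was not measured.

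A second shared feature was the hosting of snoRNA genes, the guide RNAs of the same pathway, within the gene body. In GENCODE 29, 7 of the 39 genes, 17.9%, enclose a snoRNA gene on their own strand, against 1.90% of 11526 tested genes. These are DKC1, GNL3, NCL, NOP56, NOP58, PPAN and WDR43. GNL3 encloses 6, NOP56 5 and NOP58 4 of them. The median log2 fold change was 0.18 in the 7 hosts and 0.12 in the other 32 genes. In the wider list it was 0.04 in 6 hosts and 0.07 in the other 125 genes, and over all tested genes 0.02 in 219 hosts and -0.0009 in the rest. This split was made after the values were seen and was not tested.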

How the data were processed

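The authors deposited 1 table of gene-level FPKM values per library, rounded to 2 decimals. The build hg18 and, among tools, RSEM 1.3.1, Cufflinks 2.2.1, Bowtie, TopHat and edgeR are named per the submitters' processing notes, with roles not given in the sources used here. Libraries were grouped by title. The 20330 Ensembl genes and 68 assembled loci present in all 6 tables were kept, and those with a mean of at least 1 FPKM, 11731, were tested on log2(FPKM + 1) without further scaling. All 39 matched genes passed this filter. Limma-trend (limma 3.58.1, R 4.3.3) was fitted to the whole table with group as the only term, two-sided, with Benjamini-Hochberg adjustment. The fit was run on simulated data with planted log2 fold changes of 0.5 or more in size. The estimates of the 39 genes were all smaller, so that run does not show whether differences of their size would be called. Summaries used Python 3.11.15, pandas 2.3.3 and numpy 2.4.6. Relative depth used genes with transcripts under 1500 bases and control replicate 2 as 1.0. The genes and lists were chosen with earlier results of these data known, and lists were therefore described by counts and medians, without a list test. Values in every library are given for the 3 genes with the lowest p and the most abundant gene of each of 6 role groups. For the wider list the 3 lowest p in each direction are named. WDR12 was added after its values were seen. Fold changes on this scale slightly understate those of low genes. Coordinates are printed only for RefSeq promoters, since the notes name another build. A marker gene of the fixed lists is not reported here.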

Additional observations from a re-analysis of the deposited data

How the results depend on the processing

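Over 14 alternatives (another pseudocount, 2 other filters, TPM, quantile normalization, no trend, array quality weights, the replicate block and leaving out each library) the count of the 39 genes past the threshold stayed at 0, as did that of the wider list. The lowest adjusted p was 0.0512, for DDX10 with array quality weights. The median log2 fold change of the 39 genes lay between 0.12 and 0.14, and 36 to 39 genes kept a higher mean. Of 546 values of single genes, 532 kept their direction and side of the threshold, and 14 in 8 genes turned, to values between -0.0277 and -0.0005. With array quality weights POLR1A went to -0.0106, NOP10 to -0.0005 and NIP7 to -0.0106. With 1 library left out, the log2 fold change ran for POLR1A from -0.0277 to 0.0845, for POLR1B from -0.0054 to 0.1385, for RRN3 from -0.0221 to 0.0555, for NOP10 from -0.0133 to 0.0392, for GAR1 from -0.0135 to 0.0877, for WDR12 from -0.0067 to 0.26, for NOP2 from -0.0007 to 0.1001 and for NIP7 from -0.017 to 0.1028. WDR12, NOP2 and NIP7 turned without control replicate 1, RRN3 and GAR1 without control replicate 2, POLR1A and NOP10 without control replicate 3, POLR1B without overexpression replicate 1, and POLR1A, RRN3 and NOP10 without overexpression replicate 2.

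The count of all tested genes called, 61, was 1 with no filter on low values, 1 with no trend and 197 with array quality weights, and between 1 and 63 when a library was left out. The cause was not tested. The count of the 39 genes higher at an unadjusted p under 0.05, 15, lay between 7 and 14 when a library was left out. With the replicate number as a block 19 of all tested genes were called. The correlation of deviations between libraries of the same number was -0.04, -0.058 and 0.045. Between libraries of different numbers it ran from -0.049 to 0.088. No pairing by number was visible in these values, though they cannot show whether libraries shared a culture or batch. The block changed no call among the 39 genes. Depth in reads is unknown, which leaves the counting error of the lower genes unknown.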
